A study of Arabidopsis thaliana with 6 samples.

Results

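The genes described here are the 3 core components of the evening complex of the Arabidopsis clock and a close relative (ELF3, ELF4, LUX and NOX), the cold-regulated pair COR27 and COR28, and the 4 LNK genes (LNK1 to LNK4). They were chosen by locus identifier, with earlier results of these data known. All 10 were found among the 36917 genes of the deposited table. RNA came from Arabidopsis thaliana seedlings of the Col-0 background, in 3 wild-type libraries and 3 libraries labelled bbx14-1, a line named for the B-box transcription factor gene BBX14. All seedlings had 3 days of stratification, a 2 h pulse of white light at 100 µmol photons per square metre and second, 3 days of darkness on sucrose-free medium and 1 day of light, and were taken on day 4. The labels give neither the hour of harvest nor the kind of bbx14-1 mutation, nor do they say that the samples of a group were grown separately. The limma p-values therefore rest on the spread among 3 libraries per group, pulled towards a variance trend fitted over all genes tested. Part of that spread may be technical. Without the trend, 28 genes passed the test in place of 883. RNA came from plants in bulk, so fewer cells of a type and less RNA per cell cannot be told apart.

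The evening complex is a repressor that forms around dusk: LUX, a GARP-type DNA-binding protein, brings the scaffold ELF3 and the small protein ELF4 to clock and growth genes. NOX, also called BROTHER OF LUX ARRHYTHMO, is the closest relative of LUX. COR27 and COR28 are small proteins induced by cold and light that repress clock genes and act in light signalling through COP1. LNK proteins bind morning MYB-like proteins such as RVE8 and help them to activate evening genes. Many evening genes carry the evening element, a short sequence bound by CCA1, LHY and the RVE proteins.

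The deposited values were normalized read counts per gene, from libraries of 20939505 to 32621183 recovered reads, of which plastid genes took 49.6% to 56.7%. BBX14 (AT1G68520) itself did not have fewer counts under the bbx14-1 label. The wild-type libraries held 540, 683 and 517 normalized counts of it, and the other group held 649, 761 and 892 (limma log2 fold change 0.40, adjusted p = 0.0726), so each direction below refers to the label. Its difference passed the test when wild type replicate 2 was dropped (0.53, limma adjusted p = 0.0199) and when bbx14-1 replicate 1 was dropped (0.52, limma adjusted p = 0.0306). The 5 genes checked as green seedling markers were abundant in all libraries, with a sum of 490813 to 625630 normalized counts. Of these 5 genes, 2 were called higher (PORB at a log2 fold change of 0.48 and CAO at 0.36) and 0 lower, with a median of 0.12. The photosynthetic genes RBCS1A, LHCB1.1 and LHCB1.3 stood at 0.12, -0.14 and -0.06 and were not called. The CAO call ended when wild type replicate 1 or 2 or bbx14-1 replicate 2 was dropped and when the variance trend was left off (limma, adjusted p = 0.0807, 0.128, 0.145 and 0.292). The PORB call also ended with the trend left off (limma, adjusted p = 0.184). The 5 seed reserve markers summed to 137 to 599 normalized counts in wild type against 57.6 to 82.0 in the libraries labelled bbx14-1, and 3 of them reached the minimum for testing, a mean of 10 normalized counts over the 6 libraries, only through wild type. The 1 called, CRC, held 276 normalized counts in wild type replicate 1 but 70.3 and 58.5 in replicates 2 and 3. CRA1 likewise held 254 in replicate 1 but 42.7 and 40.3 in the others, so the upper wild-type sum comes from replicate 1. The log2 fold change of CRC, -2.22, became -1.52 when replicate 1 was dropped (limma, adjusted p = 0.0365). Its call ended when the variance trend was left off (limma, adjusted p = 0.191). The 5 root hair and root markers had positive fold changes, with a median of 0.47 and 0 called (limma, 3 at an unadjusted p under 0.05). They summed to 26016 to 29039 against 32213 to 39908, nearly all of it PYK10, an abundant beta-glucosidase gene of roots. PYK10 and PRP3, the 2 most abundant, stood at 0.32 and 0.83. With a pseudocount of 8, voom or a replicate block, 1 of the 5 was called higher. The same count held when wild type replicate 2 or 3 or bbx14-1 replicate 3 was dropped. The part of these markers in the results below was not tested.

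Among the members called, COR27 and COR28 fell most, LUX fell less and ELF3 fell by the smallest amount. ELF4, at a log2 fold change of -1.65, NOX and the 4 LNK genes did not pass the test. In all, 4 of the 10 members had a call, each lower and 0 higher, in the libraries labelled bbx14-1 (limma, Benjamini-Hochberg adjusted p under 0.05; of 6 uncalled members, 2 had an unadjusted p under 0.05). Among all 19003 genes tested, 4.65% were called, 2.14% lower and 2.51% higher. In 7 of the 10 members each library labelled bbx14-1 was below each wild-type library, an order seen in 10.6% of all genes tested, and the opposite order, seen in 10.4%, held for 0 members. The median log2 fold change of the members was -0.45, against 0.00 for all genes tested. Since the members were chosen with earlier results of these data known, these counts and this median describe the 10 members only. All 10 members passed the limit of a mean of 10 normalized counts over the 6 libraries, ELF4 only through its wild-type level.

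**Figure D1:**
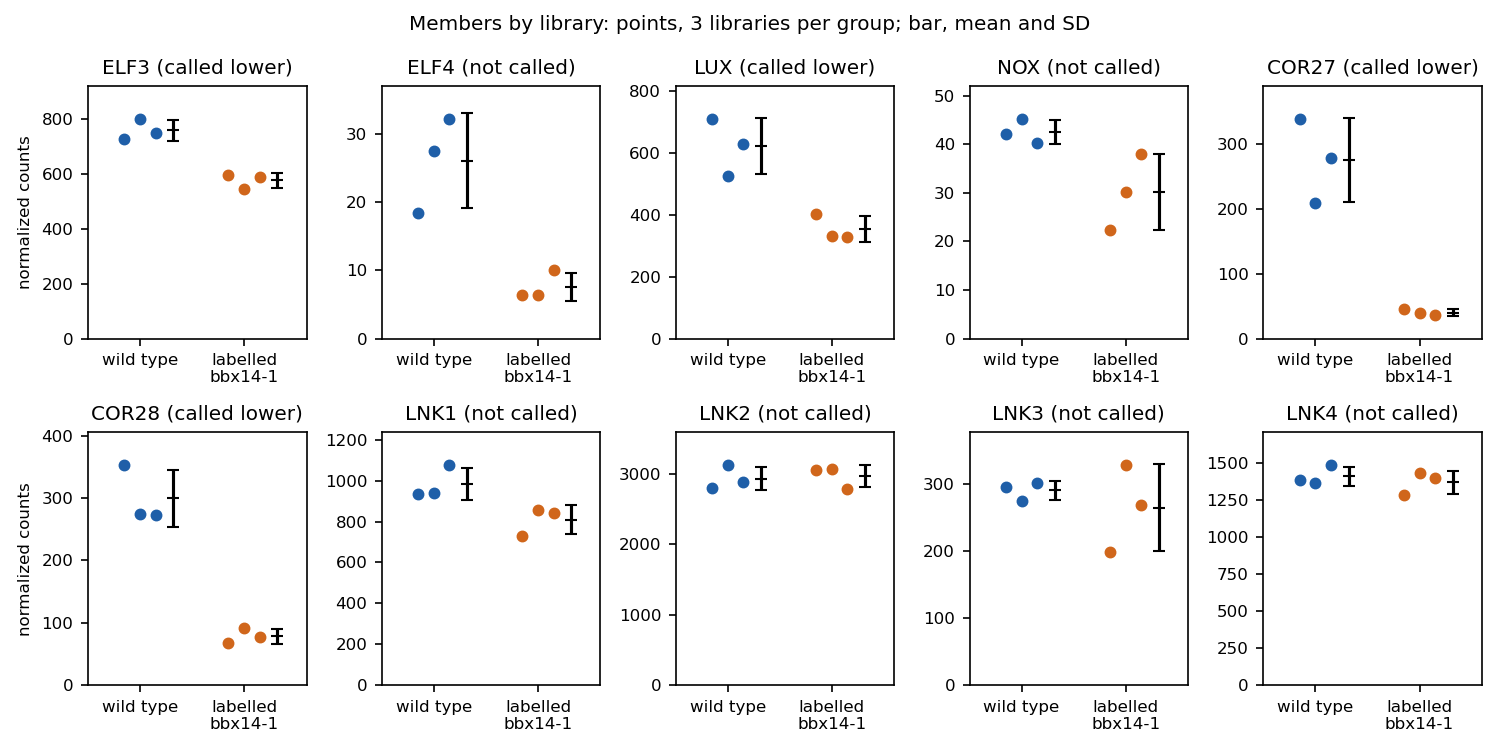
Normalized counts of each member (vertical axis, from 0) in 3 wild-type libraries and 3 libraries labelled bbx14-1, with mean and SD beside the points. The groups do not overlap for ELF3, ELF4, LUX, NOX, COR27, COR28 and LNK1, and do overlap for LNK2, LNK3 and LNK4.

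COR27 (AT5G42900, chromosome 5, 17197641 to 17199910 in TAIR10.1, minus strand, 6 exon blocks) held 339, 209 and 279 normalized counts in wild type replicates 1 to 3 and 45.6, 38.7 and 36.0 in the libraries labelled bbx14-1. The groups stood far apart, and the lowest wild-type library held over 4 times the highest of the other group. The means were 276 ± 65.3 and 40.1 ± 4.93 (SD, n = 3), a ratio of 6.87. The log2 fold change was -2.73 with a 95% confidence interval from -3.19 to -2.27 (limma, adjusted p = 2.29e-08), and only 5 of the 19003 genes tested had a lower one. Nothing in the exons of COR27 overlaps another annotated gene, and 0% of its 50-base windows occur elsewhere in the genome.

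COR28 (AT4G33980, chromosome 4, 16282281 to 16285229, minus strand, 5 exon blocks) held 352, 274 and 272 normalized counts in wild type, against 67.2, 91.4 and 77.0 in the libraries labelled bbx14-1. It too fell without overlap between the groups, from a mean of 299.5 ± 45.8 to 78.5 ± 12.2 (SD, n = 3), a ratio of 3.81. The log2 fold change was -1.92, with a 95% confidence interval from -2.30 to -1.54 (limma, adjusted p = 3.23e-07). Both genes kept their calls in each of the 14 alternative settings, at log2 fold changes of -2.92 to -2.54 for COR27 and -2.03 to -1.80 for COR28.

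The pair was near parity in wild type and tilted towards COR28 in the libraries labelled bbx14-1. The log2 ratio of COR27 to COR28 counts was -0.06, -0.39 and 0.04 in the wild-type libraries and -0.56, -1.24 and -1.10 in the others. These ratios do not overlap between the groups and differ by -0.83, with an exact two-sided permutation p = 0.1, the smallest that 3 libraries against 3 allow. Over the 4 pairs of relatives compared the adjusted exact p was 0.4; no outcome of this design could have passed 0.05, so the test says nothing either way.

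The bases just upstream of COR28 hold no match to the evening element, AAAATATCT, on either strand. They do hold a match to a CCA1-binding site, AAAAATCT, from -143 to -136. Whether the motifs bear on the fall of COR28 was not tested. The stretch covers chr4:16285230-16285479 (TAIR10.1, RefSeq annotation), 250 bases that end at the annotated gene start. It is read 5′ to 3′ on the minus strand. All its bases, the CCA1-binding site included, are in lower case since capitals would mark only the evening element.
COR28: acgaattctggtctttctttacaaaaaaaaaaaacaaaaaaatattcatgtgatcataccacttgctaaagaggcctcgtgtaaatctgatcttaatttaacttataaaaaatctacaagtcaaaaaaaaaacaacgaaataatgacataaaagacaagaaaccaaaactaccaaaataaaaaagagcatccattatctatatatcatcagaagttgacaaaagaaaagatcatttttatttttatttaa

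LUX (AT3G46640, listed as PCL1 in the annotation; chromosome 3, 17183042 to 17186959, plus strand), the DNA-binding part of the complex, held 711, 528 and 630.4 normalized counts in wild type, against 402, 332 and 328 in the libraries labelled bbx14-1. The groups do not overlap. The mean fell from 623 ± 91.8 to 354 ± 41.7 (SD, n = 3), and the log2 fold change was -0.81 with a 95% confidence interval from -1.08 to -0.54 (limma, adjusted p = 0.00033). It lost its call without the variance trend (limma, adjusted p = 0.133). A gene on the opposite strand, AT3G46650, shares 17.8% of the exon bases of LUX and had 0 to 8 reads per library.

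ELF3 (AT2G25930, chromosome 2, 11058944 to 11063324, plus strand), the scaffold, fell by 0.40 on the log2 scale. Its wild-type libraries held 727, 801 and 751 normalized counts and the libraries labelled bbx14-1 held 596, 547 and 588. The spread within each group was small, 760 ± 38.1 against 577 ± 26.2 (SD, n = 3), and the groups do not overlap (95% confidence interval of the log2 fold change -0.61 to -0.18; limma, adjusted p = 0.0273). This call was lost in 6 of 14 alternative settings, namely without wild type replicate 1, 2 or 3, without bbx14-1 replicate 2, with voom and without the variance trend (limma, adjusted p = 0.0665, 0.113, 0.0756, 0.102, 0.0683 and 0.197).

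ELF4 (AT2G40080, chromosome 2, 16734294 to 16734953, minus strand), a small protein gene of a single exon block, was a low-count gene, and in the libraries labelled bbx14-1 it was near the floor of 3 reads. It had 22, 22 and 32 reads in the wild-type libraries and 8, 6 and 10 reads in the libraries labelled bbx14-1, or 18.5, 27.6 and 32.3 against 6.40, 6.45 and 10.0 normalized counts. No library of one group reached into the other. The means of 26.1 ± 7.01 and 7.62 ± 2.07 (SD, n = 3) gave a log2 fold change of -1.65, with a 95% confidence interval from -2.73 to -0.56, which did not pass the test (limma, adjusted p = 0.0766). None of 13 alternative settings called it (limma, adjusted p from 0.0622 to 0.28).

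NOX (AT5G59570, listed as BOA; chromosome 5, 24003888 to 24007844, plus strand) held 42.0, 45.2 and 40.3 normalized counts in wild type, against 22.4, 30.1 and 38.0 in the libraries labelled bbx14-1. The highest of the latter lay just under the lowest of the former. The log2 fold change of -0.51 had a 95% confidence interval from -1.22 to 0.20 and was not called (limma, adjusted p = 0.496). Its opposite-strand neighbour UGT76E1 shares 45.9% of its exon bases but had 0 or 1 read per library. The log2 ratio of LUX to NOX counts averaged 3.86 ± 0.282 for wild type, against 3.58 ± 0.538 for bbx14-1-labelled libraries (SD, n = 3; exact two-sided permutation p = 0.6, where 0.1 is again the smallest possible).

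The stretches upstream of LUX and NOX are shown because these relatives both hold 1 evening element at a similar place, LUX from -53 to -45 and NOX from -43 to -35 on the opposite strand. They cover chr3:17182792-17183041 and chr5:24003638-24003887 (TAIR10.1), plus strand, 5′ to 3′, with the element, AAAATATCT or its reverse complement, in capitals.
LUX: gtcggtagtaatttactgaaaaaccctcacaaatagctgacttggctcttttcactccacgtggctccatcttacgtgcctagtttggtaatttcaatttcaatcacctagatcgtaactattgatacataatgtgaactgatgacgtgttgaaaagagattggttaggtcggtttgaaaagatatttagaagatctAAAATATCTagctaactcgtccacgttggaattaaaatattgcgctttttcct
NOX: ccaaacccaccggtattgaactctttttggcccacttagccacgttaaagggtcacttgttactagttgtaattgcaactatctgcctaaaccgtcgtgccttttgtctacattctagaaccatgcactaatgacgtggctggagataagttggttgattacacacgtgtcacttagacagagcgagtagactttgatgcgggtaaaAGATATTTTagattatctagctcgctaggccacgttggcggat

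The LNK genes showed little or no difference. LNK1 (AT5G64170, chromosome 5, 25672466 to 25676823, minus strand) held 936, 942 and 1075 normalized counts in wild type, against 730.0, 855 and 844 in the libraries labelled bbx14-1. Its groups do not overlap, yet the log2 fold change of -0.28 (95% confidence interval -0.50 to -0.07) was not called (limma, adjusted p = 0.139), nor was it in any alternative setting (limma, adjusted p from 0.124 to 0.413). An opposite-strand gene, AT5G64160, shares 9.19% of its exon bases and held 121 ± 20.2 and 109 ± 10.7 normalized counts (SD, n = 3). LNK2 (AT3G54500, chromosome 3, 20175370 to 20179070, minus strand) held 2793, 3120.1 and 2888 against 3052, 3070.4 and 2788, and the groups overlap. Its log2 fold change was 0.02, with an interval from -0.16 to 0.20 (limma, adjusted p = 0.951).

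LNK3 (AT3G12320, chromosome 3, 3923515 to 3925502, plus strand) held 295, 275 and 302 normalized counts in wild type, against 198, 328 and 268 in the libraries labelled bbx14-1, where replicate 2 lay above and replicates 1 and 3 below all wild-type libraries. The log2 fold change was -0.16, with an interval from -0.49 to 0.17 (limma, adjusted p = 0.681). LNK4 (AT5G06980, chromosome 5, 2167120 to 2169437, plus strand) held 1386, 1365 and 1486 against 1284, 1434 and 1399. These values overlap, with a log2 fold change of -0.04 and an interval from -0.23 to 0.15 (limma, adjusted p = 0.88). The log2 ratio of LNK1 to LNK2 counts averaged -1.58 ± 0.151 for wild type, against -1.88 ± 0.173 for bbx14-1-labelled libraries (SD, n = 3; exact two-sided permutation p = 0.2). For LNK3 to LNK4 the ratios were -2.28 ± 0.0435 and -2.40 ± 0.284 (SD, n = 3; exact two-sided permutation p = 0.7). With 0.1 again the smallest p possible, neither ratio test says anything either way.

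**Figure D2:**
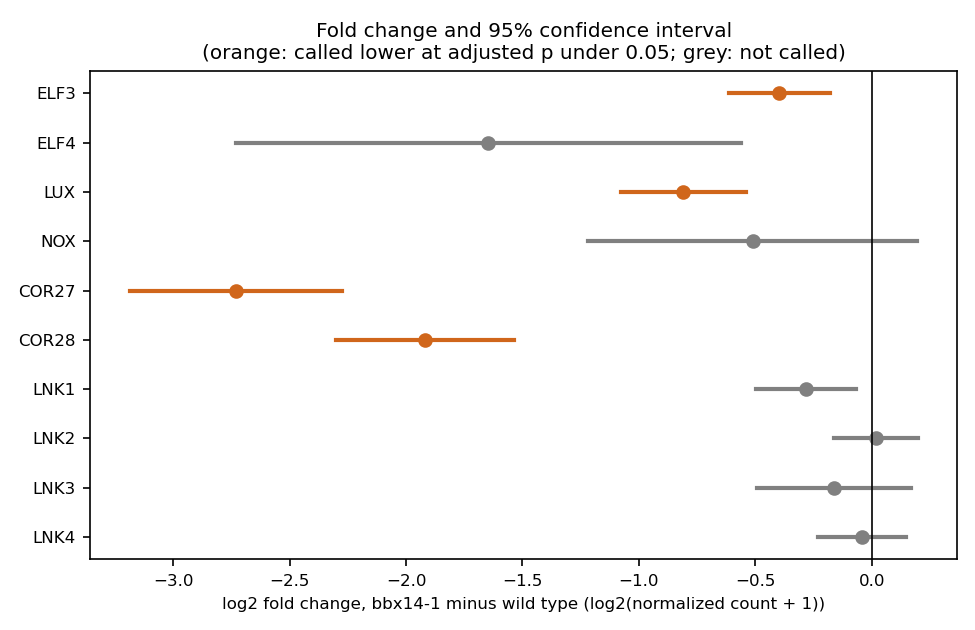
Log2 fold change of each member, bbx14-1 minus wild type, on log2(normalized count + 1) (horizontal axis), with the 95% confidence interval from limma as a line. COR27 and COR28 lie at -2.73 and -1.92, and the intervals of NOX, LNK2, LNK3 and LNK4 include 0.

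Ordered by level per length in wild type, LNK2 led with 1003 ± 57.5 normalized counts per kb of exon, then LNK4 with 764 ± 34.8, LNK1 with 369 ± 29.5 and ELF3 with 276 ± 13.9 (SD, n = 3). COR27, LNK3, COR28 and LUX followed at 194, 176, 176 and 159 per kb, and neighbours within these 4 overlap in range. ELF4 at 42.2 ± 11.3 and NOX at 11.6 ± 0.677 per kb closed the order, each without overlap with the gene above. In the libraries labelled bbx14-1 the first 4 places were the same, while COR28 and COR27 stood below LUX, at 46.0 ± 7.13 and 28.3 ± 3.48 per kb against 90.4 ± 10.6. Per kb of coding sequence only 2 of the 10 members kept their wild-type place, and LUX moved from the eighth to the third, since its annotated exons span 3916 bases, most of them not coding.

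**Figure D3:**
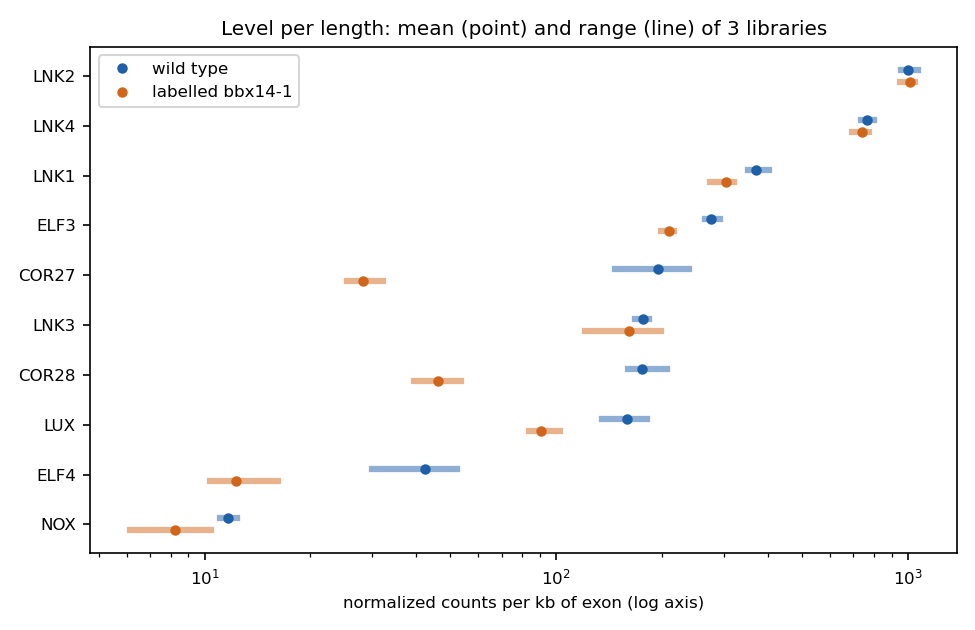
Normalized counts per kb of exon (logarithmic horizontal axis) for each member, ordered by wild-type mean, with the mean as a point and the range of 3 libraries as a line. In the libraries labelled bbx14-1, COR27 and COR28 drop from the level of LNK3 to 28.3 and 46.0 per kb, while LNK2 and LNK4 stay beside their wild-type values.

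Short motifs were counted in the 500 bases upstream of the annotated gene start of the 9 members other than COR27, on both strands and with overlaps allowed, and set beside the same count in 27443 nuclear protein-coding genes. The evening element AAAATATCT was present upstream of 2 of the 9 members (LUX and NOX) and of 4.44% of all genes. A CCA1-binding site, AAAAATCT, was present upstream of COR28 alone among the 9 and of 12.5% of all genes. The sequences GATTCG or GATACG, which LUX can bind, stood upstream of 5 members (ELF3, ELF4, LUX, LNK1 and LNK2) and of 22.6% of all genes. The G-box CACGTG, bound by HY5 and PIF proteins, stood upstream of LUX, NOX and LNK3 and of 9.35% of all genes. The core CCGAC of the cold response element stood upstream of ELF3, LUX and LNK4 and of 21.4% of all genes, but not upstream of COR28. A match is a description of the letters only.

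**Figure D4:**
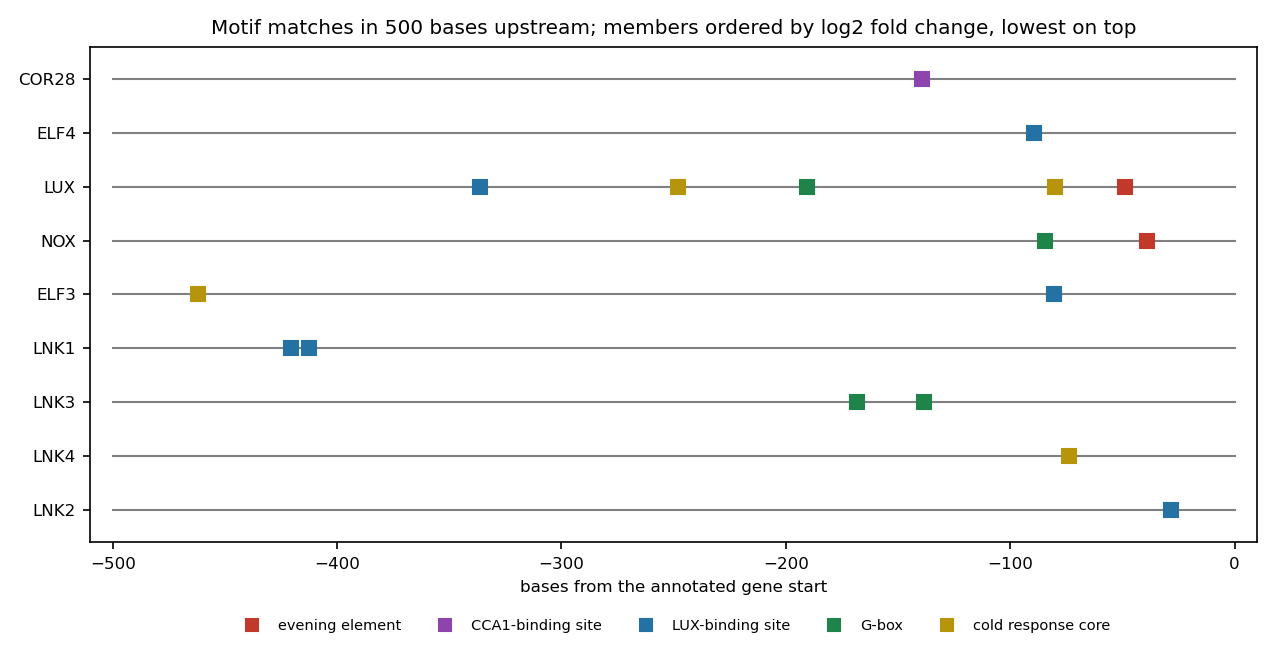
Positions of motif matches in the 500 bases upstream of 9 members (horizontal axis, bases from the annotated gene start), with members ordered by log2 fold change from COR28 at the top to LNK2. The 2 evening elements, upstream of LUX and NOX, lie within 53 bases of the gene start.

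Genes that work with the members were read from lists, each chosen with earlier results of these data known. The counts of calls here and below therefore describe the listed genes only. Among all genes tested, 2.14% were called lower and 2.51% higher. Among partners of the evening complex, 3 of 4 tested were called lower and 0 higher, with a median log2 fold change of -0.78. TZP, a zinc-finger protein of light signalling, went from 965 ± 45.4 to 675 ± 96.0 normalized counts (SD, n = 3; log2 fold change -0.53, limma adjusted p = 0.00524). The loci AT2G16365 and AT4G34550, which the annotation calls F-box proteins, fell from 1632 ± 84.0 to 801 ± 75.2 and from 37.5 ± 3.30 to 10.9 ± 2.53 (log2 fold changes -1.03 and -1.72, limma adjusted p = 3.23e-07 and 0.0212). AT4G34550 was a low-count gene, with 48, 27 and 38 reads in wild type and 16, 11 and 8 in the libraries labelled bbx14-1. The call of AT4G34550 did not hold when wild type replicate 1 or 3 or bbx14-1 replicate 3 was left out (limma, adjusted p = 0.11, 0.0919 and 0.0572). Those of AT2G16365 and TZP ended when the variance trend was left off (limma, adjusted p = 0.0577 and 0.197). PHYB, the red-light receptor phytochrome B, stood at -0.12 and was not called. Among the 4 tested relatives of ELF3 and ELF4, 0 were called in either direction (limma; 0 at an unadjusted p under 0.05), with ELF4-L2 and ELF4-L4 at 0.06 and -0.14.

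Known targets of the evening complex moved both ways: 2 of 5 were called lower and 1 higher, with a median log2 fold change of -0.32. GI, the clock gene GIGANTEA, fell from 4264 ± 180 to 2856 ± 108 normalized counts (log2 fold change -0.58, limma adjusted p = 0.000101), a call that ended when the variance trend was left off (limma, adjusted p = 0.108). PIF4, a growth-promoting bHLH factor gene, rose by 0.41 (limma, adjusted p = 0.0192), and PRR7, a pseudo-response regulator gene, fell by 0.32 (limma, adjusted p = 0.0273). The PIF4 call did not hold when wild type replicate 1 or bbx14-1 replicate 2 or 3 was left out (limma, adjusted p = 0.158, 0.0793 and 0.0683) or the variance trend was left off (0.256). The PRR7 call failed under quantile normalization, with voom and when any single library but wild type replicate 3 was dropped (adjusted p of limma between 0.0512 and 0.143 over these), as well as with the variance trend left off (limma, adjusted p = 0.254). Of the 5 genes outside the members that LNK proteins with RVE8 activate, 4 were called lower and 0 higher, with a median of -1.10. These were GI again, the photoperiod photoreceptor gene FKF1 (-2.08), PRR5 (-1.70) and TOC1 (-1.10), and the last 3, unlike GI, kept their calls in each alternative setting.

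Among the MYB-like genes that bind evening elements, 3 had positive and 2 had negative fold changes, and 1 passed the test. LHY, a morning repressor, rose from 98.3 ± 21.2 to 218 ± 59.1 normalized counts (SD, n = 3; log2 fold change 1.13, limma adjusted p = 0.00179), the 1 of 5 called. That call ended when the variance trend was left off (limma, adjusted p = 0.16). CCA1, the partner of LHY, held 439, 490 and 450 normalized counts in wild type, against 550, 617 and 590.2 in the libraries labelled bbx14-1, without overlap but not called (log2 fold change 0.35, limma adjusted p = 0.0806). RVE8, which recruits LNK proteins, was also higher in each library labelled bbx14-1 and not called (0.54, limma adjusted p = 0.226). RVE4 and AT5G52660 stood at -0.23 and -0.22, with overlapping groups and no call. The unadjusted p of CCA1, RVE8 and RVE4 was under 0.05 (limma, 0.00496, 0.0294 and 0.0181).

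Of the genes whose products act with COR27 and COR28 in light signalling, 0 of 4 were called (limma; 0 at an unadjusted p under 0.05), with SPA1 and PHYB at log2 fold changes of -0.20 and -0.12. Among cold-induced genes, a list also chosen with earlier results known, 4 of 10 tested were called lower and 0 higher (2.14% and 2.51% of all genes tested). COR15A and COR15B, the latter among the 4, reached the minimum for testing only through wild type, and 3 were called at a minimum mean of 50 and 2 when wild type replicate 3 was dropped. RD29A went from 1314 ± 51.3 to 493 ± 111 normalized counts (SD, n = 3; limma, adjusted p = 7.65e-08), and KIN2 from 412 ± 111 to 191 ± 21.9 (limma, adjusted p = 0.000187). Both of these calls ended when the variance trend was left off (limma, adjusted p = 0.0667 and 0.133). COR15B, a chloroplast-targeted cold protein gene, held 35, 13 and 42 reads in wild type and 2 in each library labelled bbx14-1, below the 3-read floor, and its ratio is therefore left out (limma, adjusted p = 0.00409; 0.0736 without wild type replicate 3). CBF3, a cold-response activator gene, fell by 0.84 on the log2 scale (limma, adjusted p = 0.0284). Dropping wild type replicate 1 or 3, or bbx14-1 replicate 1 or 3, ended this call (adjusted p of limma between 0.053 and 0.196), as did leaving off the variance trend (0.198). Its neighbours CBF1 and CBF2 stood at -0.53 and 0.26, neither called.

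**Figure D5:**
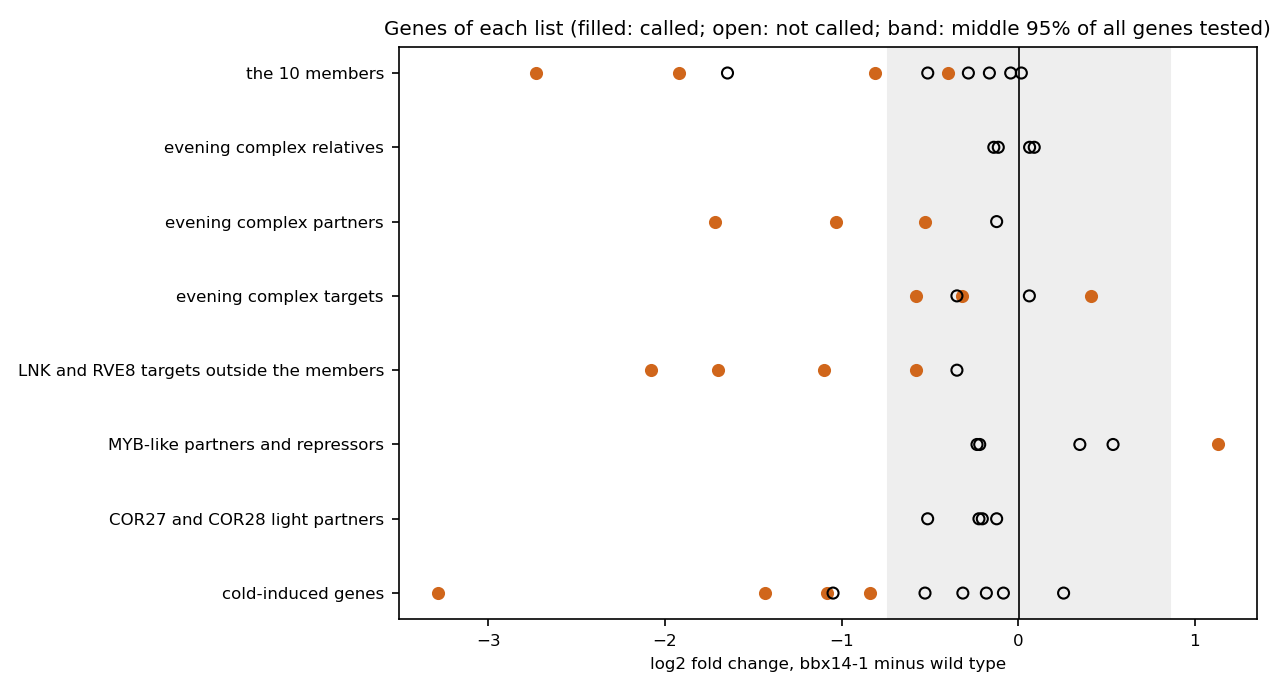
Log2 fold change of each tested gene (horizontal axis, bbx14-1 minus wild type) by list, filled where called and open where not, with a band for the middle 95% of all genes tested, from -0.74 to 0.86. COR27, COR28, ELF4 and LUX lie to the left of the band, as do FKF1, PRR5 and TOC1, while LHY lies to its right.

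For the member with the smallest adjusted p in each role, the genes with the likest profile were found by the root mean square distance between centred log2 values over the 6 libraries, among 15035 genes whose mean normalized count reached 50. COR27 was nearest to AT5G05200 (distance 0.217), AT1G07050 (0.367) and FKF1 (0.38), each called lower. LUX was nearest to HSFA8 (0.0759), AT1G56300 (0.0999) and AT3G09720 (0.101), also called lower. LNK1 was nearest to AT5G49400 (0.0209), NCED4 (0.037) and PDE135 (0.0455), which like LNK1 were not called. With 2 groups of 3, such distances mostly measure the difference between the groups.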

How the data were processed

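The authors deposited 1 table of normalized counts for 36917 genes in 6 libraries, with rRNA-depleted, strand-specific preparation per the labels. Per the submitters' processing notes, Trimmomatic, FastQC, TopHat2 2.1.1, featureCounts, DESeq2 and the build TAIR10 were used; the strand setting of the counting is not given in the sources used here. All values above 0 (100%) were whole multiples of the smallest value of their library within 0.01, which gave the reads per gene. A floor of 3 reads equals 2.40 to 3.77 normalized counts and covers counting error only.

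Genes with a mean of at least 10 were tested with limma 3.58.1 (R 4.3.3) on log2(normalized count + 1) with a variance trend, two-sided, with Benjamini-Hochberg adjustment over 19003 genes and a threshold of 0.05; such a fold change understates that of low genes. Alternatives changed the pseudocount (8), the minimum mean (none, 50), the scaling, the variance trend and the replicate block, used voom on the recovered reads, or left out each library. The fit was tested on simulated data. No pair of libraries of a group looked like 1 library deposited again (chi-square per degree of freedom at least 8.08); this does not show that they were grown separately. Members and lists were chosen with earlier results of these data known. Text names all members, BBX14, some genes that overlap members, up to 4 called genes per list by adjusted p (or the 2 most abundant) and the likest profiles. CCA1, RVE8, RVE4, AT5G52660, CBF1, CBF2, CRA1, COR15A, RBCS1A, LHCB1.1 and LHCB1.3 were added after their values were seen. Positions and sequences come from TAIR10.1 through locus identifiers alone. Exact permutation tests used scipy 1.17.1. The upstream stretch of COR27 is not reported here.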

Additional observations from a re-analysis of the deposited data

How the results depend on the processing

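The 4 members called lower became 3 with voom on the recovered reads and 2 without the variance trend, and 3 to 4 when 1 library was left out; no setting called a member higher. Without the trend, 28 genes were called in place of 883 (15 lower and 13 higher in place of 406 and 477), and 5 listed genes lower (AT4G34550, FKF1, PRR5, TOC1 and COR15B) and 0 higher in place of 13 and 4. Leaving out 1 library gave 529 to 762 calls (247 to 406 lower, 282 to 437 higher), with 2 to 5 listed genes higher, the lowest without wild type replicate 1 or bbx14-1 replicate 2. Per kb of coding sequence, 2 of 10 members kept their place in the order of levels. With the replicate number as a block, 915 genes and 4 members were called. Same-numbered libraries deviated together only weakly (r = 0.04, 0.02 and -0.03), so the values give no sign of pairing by number. This does not show that same-numbered samples were grown or handled apart. The share of higher among calls ran from 46.1% to 60.2%. Fold changes of LNK2, LNK3 and LNK4, none called, changed sign in 3, 1 and 1 of 14 settings. ELF4 and NOX could not be fitted at a mean of at least 50. The planned edgeR and DESeq2 tests were not run. The fold change of ELF4 rests on 6 to 10 reads in each library labelled bbx14-1.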
